A study of Mus musculus with 24 samples.

Results

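The change of gene expression over 24 h in culture was compared between FL and GM dendritic cell cultures, gene by gene, as (FL DMSO minus FL t0) minus (GM DMSO minus GM t0) on the log2 scale. The comparison used 12 of the 24 libraries of the series, 3 in each of 4 groups chosen by their titles, and 16516 genes that passed a filter on low counts. FL cultures were mouse bone marrow cells grown with FLT3L at 200 ng/ml in addition to GM-CSF at 20 ng/ml, and were sampled after 24 h with the solvent DMSO and at the start, on day 16. GM cultures were grown with 20 ng/ml GM-CSF alone, and were sampled after 24 h with DMSO and at the start, on day 8. The series names the FL cells cDC1 and the GM cells moDCs. Donors were C57BL/6JRj mice, wild type or Cas9-EGFP, with the genotype of each sample not given in the sources used here. None of the 12 libraries received AZD5582, the IAP antagonist of the study. FL libraries carry the culture numbers 91, 94 and 95, whereas the GM libraries are replicates 1, 2 and 3 under 1 shared culture number. The labels do not say whether the GM replicates are from different animals, so p-values measure the spread between these samples, which may be technical in part. Day, FLT3L and culture type cannot be told apart, and neither can time in culture and DMSO.

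Dendritic cells take up antigen while immature and, on maturation, switch to presenting it: they raise the lymph node homing receptor Ccr7, the actin bundler Fscn1 and costimulatory molecules, and stop dividing. In culture a share of them matures without an added stimulus. Type 1 conventional dendritic cells (cDC1) depend on the cytokine receptor Flt3 and the transcription factors Irf8 and Batf3, and carry the receptors Xcr1 and Clec9a, while GM-CSF alone yields monocyte-derived cells mixed with macrophages. Type I interferon acts through factors that include Stat2 and Irf9, which bind the interferon-stimulated response element (ISRE) in promoters of antiviral genes such as Mx1, Mx2 and the Ifit family.

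The 12 libraries held 27.01 to 81.01 M gene counts, with a median of 54.4 M, and the FL DMSO libraries were the shallowest group, at 27.01 to 34.7 M. Mitochondrial genes took 1.96% to 4.46% of gene counts in FL DMSO, 1.84% to 2.29% in FL t0, 3.20% to 4.79% in GM DMSO and 2.08% to 3.21% in GM t0. The label was checked against the cDC1 receptor Xcr1, which had 8.45, 17.1 and 29.3 CPM (gene counts scaled to a common library size) in FL DMSO cultures 91, 94 and 95 and 392, 111 and 154 CPM in FL t0, against at most 0.180 CPM in any GM library. Xcr1 is 1 of 24 cDC1 markers tested, whose sum separated the types less. The sum was 3829 to 5586 CPM in FL DMSO against 2964 to 3153 CPM in GM DMSO. At t0 it was 6669 to 12810 CPM in FL against 3645 to 3763 CPM in GM. The 30 monocyte and macrophage markers tested summed to 1705 to 2600 CPM in FL DMSO, 1434 to 1783 CPM in FL t0, 38630 to 45700 CPM in GM DMSO and 27690 to 34180 CPM in GM t0. The 11 lymphocyte markers tested summed to at most 20.1 CPM in any library, and Cd3e and Pax5 were under 1 CPM in all 12. The 20 neutrophil markers summed to 2649, 12450 and 5275 CPM in FL DMSO cultures 91, 94 and 95 and 1523, 5080 and 2573 CPM in FL t0, against 2029 to 2457 CPM in GM DMSO and 2405 to 2866 CPM in GM t0. Their part in the differences below was not tested. In bulk RNA fewer cells of a type and less RNA per cell cannot be told apart.

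FL culture 91 stood apart after 24 h. On the second principal component its DMSO library lay at 49.94, against -4.50 for culture 94 and 4.28 for culture 95, whereas the 3 FL t0 libraries lay between -35.05 and -31.77. In culture 91, 4256 genes differed by at least 1 unit of log2(CPM + 1) between DMSO and t0, against 1023 in culture 94 and 1160 in culture 95, and against 1714, 2099 and 2156 in GM replicates 1, 2 and 3. The biological coefficient of variation was 0.347 among the FL libraries and 0.128 among the GM libraries. The total of called differences is therefore also given below without both libraries of culture 91. Its classes and the changes within each type without them are in the last paragraph, and the calls of most gene lists in their own paragraphs.

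The change over 24 h differed between the culture types for 261 genes at an adjusted p under 0.05 (quasi-likelihood test of edgeR, adjusted by Benjamini-Hochberg over every gene tested), which is 1.58% of those tested. It was higher in FL for 95 genes (0.575%) and lower for 166 (1.01%). Within FL cultures 4696 genes changed over 24 h (28.4%), of which 2670 rose (16.2%) and 2026 fell (12.3%). Within GM cultures 4378 genes changed (26.5%), of which 2373 rose (14.4%) and 2005 fell (12.1%). In this fit the spread of each gene was estimated over both types together. With limma voom weighted by group, 2376 genes were called in FL and 8447 in GM, so the 2 totals and the classes built on them depend on that choice. Of the 261 genes, 14 rose in FL and fell in GM, 17 fell in FL and rose in GM, 60 changed in FL with no call in GM, 94 changed in GM with no call in FL, and 76 changed in the same direction by different amounts. Among those 76, 63 rose in both types, every one of them more in GM. The difference was at least 1 log2 unit for 243 of the 261 genes, with a median size of 2.11. As a description of genes that this same test selected, the 3 same-numbered changes of FL lay entirely above or below those of GM in 250 of the 261 (26.2% over all genes), from which nothing is read. Across all 16516 genes the FL and GM changes had a Pearson r of 0.564 and a Spearman coefficient of 0.611, as a description over genes, which are not independent replicates.

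**Figure D1:**
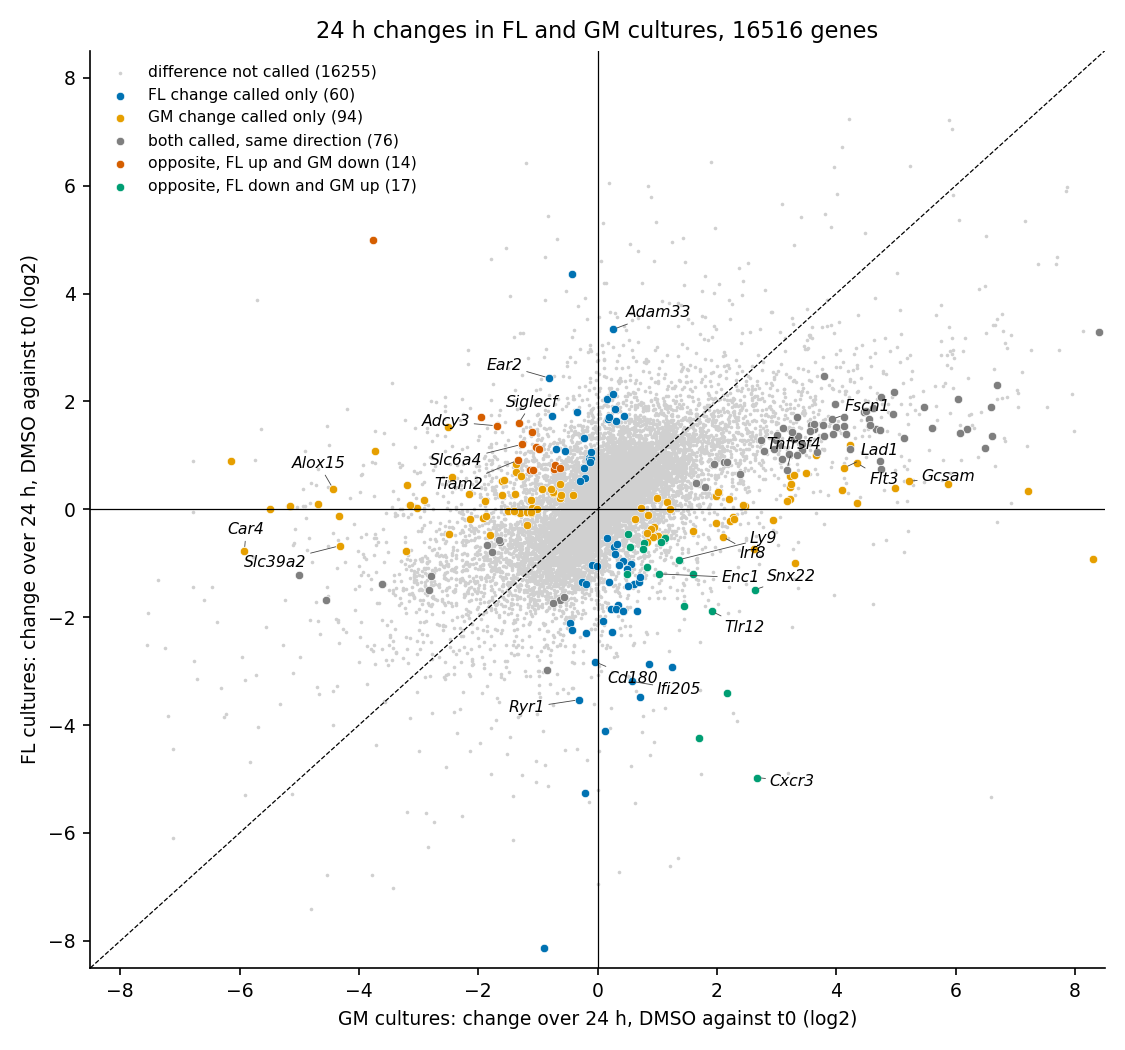
Each point is a gene, at its log2 change over 24 h (DMSO against t0) in FL cultures on the vertical axis and in GM cultures on the horizontal axis, with 261 genes coloured by class and 11 genes outside the axes. The 31 genes with opposite changes lie in the upper left (14) and lower right (17), and points below the dashed line of equal change have a lower change in FL.

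Without both libraries of culture 91 the difference was called for 2978 of 16966 genes (17.6%), 1125 higher in FL (6.63%) and 1853 lower (10.9%). All 261 genes were among them with the same sign. They had been selected with the same remaining libraries, so this is no independent test and nothing is read from it. Culture 91 was left out because its values stood apart, and 2 libraries remained in each FL group. The spread was then taken from these and the GM replicates together, and the latter may be technical in part. These limits hold for every value without culture 91 below. Without FL DMSO 91 alone it was called for 3139 genes. Leaving out any other single library lowered the count. It was 227 and 194 without FL DMSO 94 and 95, and 154, 160 and 75 without FL t0 91, 94 and 95. It was between 78 and 109 without GM DMSO 1, 2 or 3, and 75, 32 and 45 without GM t0 1, 2 and 3. In all 12 such fits 29 of the 261 genes were called. With the culture or replicate number as a block 180 genes were called (82 higher and 98 lower), 118 of them among the 261. The number of these 12 fits in which a gene was called is given beside the genes below.

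**Figure D2:**
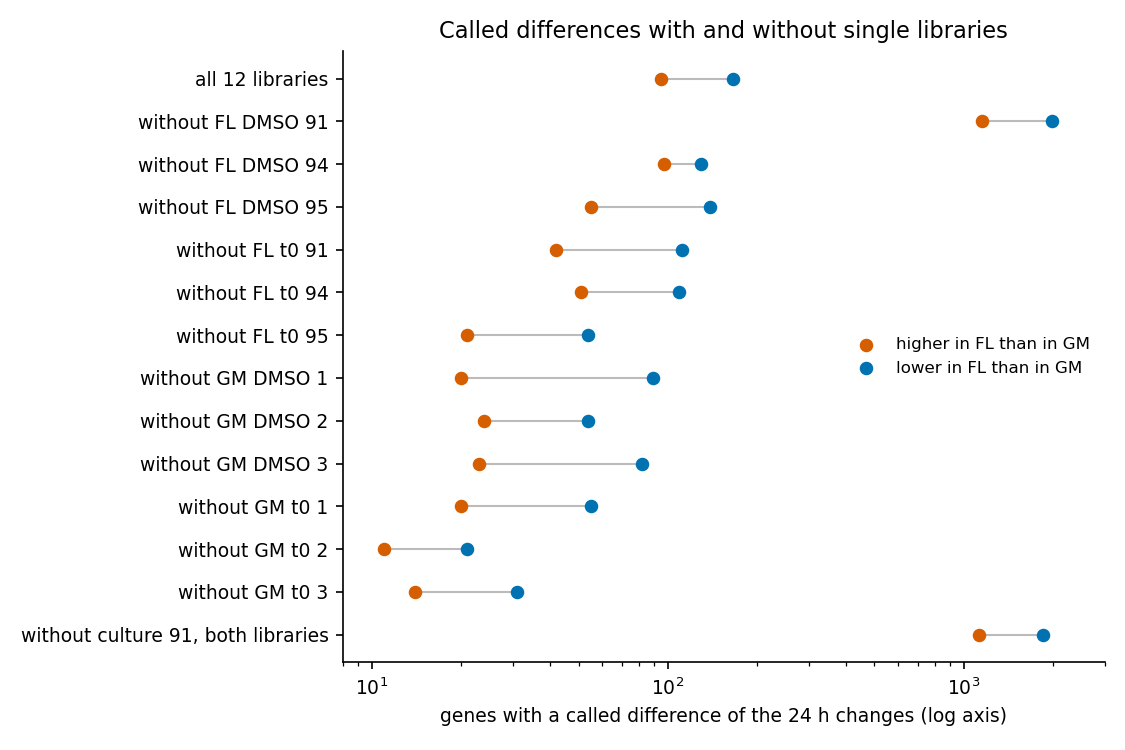
The horizontal log axis gives the number of genes whose 24 h change was called higher (orange) or lower (blue) in FL than in GM, and each line of the vertical axis is a fit to all 12 libraries or without the library named. The counts are 1153 and 1986 without FL DMSO 91, against 95 and 166 with all 12 libraries, and 11 and 21 without GM t0 2.

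Among the 31 genes with opposite changes, Adcy3, an adenylyl cyclase that makes cyclic AMP, had 0.927, 0.651 and 0.548 CPM in FL DMSO cultures 91, 94 and 95, 0.235, 0.131 and 0.362 CPM in FL t0, 2.74, 3.22 and 3.93 CPM in GM DMSO, and 11.7, 11.2 and 9.03 CPM in GM t0. All 3 FL DMSO libraries were above all FL t0 libraries and all GM DMSO libraries below all GM t0 libraries. Its log2 change was 1.55 ± 0.36 in FL and -1.69 ± 0.29 in GM (± SE), a difference of 3.24 ± 0.46 with an adjusted p of 0.0110, and it was called in 12 of the 12 fits that left out a library. Tiam2, an exchange factor that activates the small GTPase Rac, behaved alike, with 5.03, 6.47 and 6.55 CPM in FL DMSO and 2.81, 3.69 and 3.12 CPM in FL t0. In GM, Tiam2 was at 6.19, 7.22 and 4.75 CPM in DMSO and 15.9, 15.3 and 14.9 CPM at t0. At t0 Tiam2 was therefore higher in GM, and after 24 h the FL and GM values overlapped. Its difference was 2.25 ± 0.27 (adjusted p 0.00453, called in 12 of 12).

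Siglecf, a sialic acid-binding lectin known from eosinophils and alveolar macrophages, had 8.81, 35.1 and 22.1 CPM in FL DMSO and 6.29, 9.69 and 5.86 CPM in FL t0, against 35.2, 33.8 and 24.9 CPM in GM DMSO and 89.7, 74.1 and 71.2 CPM in GM t0. Its FL values overlapped between DMSO and t0 through the low library of culture 91, yet each culture's own DMSO value was above its t0 value. The difference was 2.92 ± 0.54 (adjusted p 0.0264, called in 4 of 12). Slc6a4, the serotonin transporter, had 14.3 to 26.7 CPM in FL DMSO and 5.35 to 11.5 CPM in FL t0, against 8.34 to 11.8 CPM in GM DMSO and 22.2 to 28 CPM in GM t0. Its difference was 2.48 ± 0.40 (adjusted p 0.0167, called in 7 of 12). Plekha6, a pleckstrin homology domain protein, differed by 2.18 ± 0.44 (adjusted p 0.0362, called in 2 of 12). All 5 of these genes were also called with the replicate block, at adjusted p of 0.00746 to 0.0402. The 13 mast cell and basophil markers tested summed to 710, 1929 and 1076 CPM in FL DMSO cultures 91, 94 and 95 and 504, 1207 and 681 CPM in FL t0, against 125.6 to 197.5 CPM in GM DMSO and 71.2 to 99.3 CPM in GM t0. In FL DMSO this sum was lowest in culture 91 and highest in culture 94, as were Siglecf, Slc6a4, Ear2 and Alox15. The neutrophil marker sum given above had the same order. The part of either sum in the values of these genes was not tested.

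Tlr12, which senses the parasite protein profilin in mouse dendritic cells, showed the reverse pattern. It had 5.81, 14.5 and 25.6 CPM in FL DMSO and 87.5, 38.1 and 44.8 CPM in FL t0. GM levels of Tlr12 were 4.34, 4.34 and 3.38 CPM in DMSO and 1.13, 1.08 and 0.986 CPM at t0. The FL and GM levels thus lay far apart at t0, and closer together after 24 h. The log2 change was -1.89 ± 0.43 in FL and 1.91 ± 0.46 in GM, a difference of -3.80 ± 0.63 (adjusted p 0.0192, called in 8 of 12). Snx22, a sorting nexin listed among cDC1 markers, had 9.02, 7.81 and 15.8 CPM in FL DMSO and 55.1, 13.5 and 23.3 CPM in FL t0, against 1.49, 1.72 and 2.15 CPM in GM DMSO and 0.280, 0.234 and 0.340 CPM in GM t0. Its FL groups overlapped across cultures, though each culture was lower in DMSO than at t0, and the difference was -4.12 ± 0.68 (adjusted p 0.0171, called in 9 of 12).

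Enc1, a Kelch protein that binds actin, had 15.3, 23.8 and 37.7 CPM in FL DMSO and 66.2, 62.2 and 47.8 CPM in FL t0. Enc1 in GM stood at 46.7, 38.7 and 59.8 CPM in DMSO and 26.5, 21.6 and 23.1 CPM at t0. The groups did not overlap within either type, and the difference was -2.22 ± 0.39 (adjusted p 0.0240, called in 9 of 12). Ly9, a receptor of the SLAM family, differed by -2.30 ± 0.44 (adjusted p 0.0293, called in 3 of 12). With the replicate block Snx22 was called (adjusted p 0.0361), while Enc1, Tlr12 and Ly9 had adjusted p of 0.0580, 0.0673 and 0.0710. The chemokine receptor Cxcr3 also passed, with 0.143, 0 and 0 CPM in FL DMSO and 3.26, 0.376 and 0.684 CPM in FL t0, against 1.14, 0.690 and 1.83 CPM in GM DMSO and 0.0986, 0.216 and 0.251 CPM in GM t0. The 3 FL DMSO libraries together held 4 counts of Cxcr3, so its fitted difference of -7.65 ± 1.62 (adjusted p 0.0293, called in 2 of 12) depends on the prior count.

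Among the 60 genes called in FL with no call in GM, 23 rose and 37 fell. A missed call is not evidence of no change, but for 37 of the 60 the 95% interval of the GM change lay within 1 log2 unit of 0. Adam33, a membrane metalloprotease, had 12.8, 11.9 and 13.1 CPM in FL DMSO cultures 91, 94 and 95 and 1.07, 1.52 and 1.15 CPM in FL t0. In GM, Adam33 was at 0.633, 0.557 and 0.675 CPM in DMSO and 0.575, 0.631 and 0.340 CPM at t0. The 3 FL cultures moved by similar amounts, culture 91 included. The FL change was 3.33 ± 0.24, the GM change 0.26 ± 0.26 with a 95% interval of -0.31 to 0.84, and the difference 3.07 ± 0.35 (adjusted p 0.00346, called in 12 of 12).

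Il1rn, the secreted antagonist of the interleukin-1 receptor, had 116, 89.0 and 87.4 CPM in FL DMSO and 23.2, 24.5 and 32.9 CPM in FL t0, against 445, 462 and 457 CPM in GM DMSO and 403, 374 and 334 CPM in GM t0. It was higher in GM than in FL at both times, and its difference was 1.56 ± 0.23 (adjusted p 0.0133, called in 11 of 12). Lrp4, a receptor of the LDL receptor family, had 9.56 to 14.1 CPM in FL DMSO and 2.13 to 3.95 CPM in FL t0, against 11.2 to 14.4 CPM in GM DMSO and 10.7 to 12.8 CPM in GM t0, a difference of 1.89 ± 0.33 (adjusted p 0.0220, called in 5 of 12). Ear2, a ribonuclease of the eosinophil-associated family whose near-identical copies may share reads, differed by 3.25 ± 0.55 (adjusted p 0.0220, called in 4 of 12). The fifth, Stra6l, a relative of the vitamin A transporter Stra6, differed by 1.81 ± 0.36 (adjusted p 0.0313, called in 3 of 12). All 5 were called with the replicate block, at adjusted p of 0.0268 to 0.0430.

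Of the genes that fell in FL with no call in GM, Cd180, a Toll-like receptor relative, had 7.88, 22.6 and 31.2 CPM in FL DMSO and 204, 111 and 123 CPM in FL t0. GM levels of Cd180 were 119, 111 and 134 CPM in DMSO and 125, 123 and 126 CPM at t0. The FL groups lay far apart and the GM groups overlapped. Its FL change was -2.83 ± 0.38, its GM change -0.04 ± 0.37, and the difference -2.78 ± 0.53 (adjusted p 0.0293, called in 4 of 12). Entpd1, the ectonucleotidase CD39, had 13.3, 25.2 and 36.2 CPM in FL DMSO and 165, 96.8 and 102 CPM in FL t0, against 106, 94.01 and 129 CPM in GM DMSO and 87.6, 101 and 90.8 CPM in GM t0, a difference of -2.52 ± 0.43 (adjusted p 0.0220, called in 9 of 12). Ryr1, a calcium release channel, differed by -3.22 ± 0.61 (adjusted p 0.0290, called in 4 of 12), Ifi205, a DNA sensor family member, by -3.76 ± 0.69 (adjusted p 0.0264, called in 5 of 12), and the kinase Camk1d by -2.30 ± 0.49 (adjusted p 0.0452, called in 2 of 12). None of these 5 was called with the replicate block, at adjusted p of 0.0708 to 0.119, and without culture 91 all 5 were called, with differences of -3.06 to -1.65.

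Hspa5, the main chaperone of the endoplasmic reticulum, had 293, 319 and 323 CPM in FL DMSO and 745, 605 and 596 CPM in FL t0, against 930, 816 and 781 CPM in GM DMSO and 825, 890 and 842 CPM in GM t0. It fell in FL by 1.06 on the log2 scale, the GM groups overlapped, and the difference was -1.04 ± 0.19 (adjusted p 0.0246, called in 6 of 12, adjusted p 0.0704 with the replicate block). It was the single called member of the 23 genes of the unfolded protein response, where 1.01% of all genes were called lower. Of the 23, 3 rose and 12 fell in FL (16.2% and 12.3% of all genes), and 3 rose and 5 fell in GM (14.4% and 12.1% of all genes). Without culture 91 the difference was called lower for 10 of the 23 and higher for 1, beside 10.9% and 6.63% of all genes. Tfeb, a master regulator of lysosome genes, differed by -1.12 ± 0.22 (adjusted p 0.0323, called in 3 of 12). It was called with the replicate block as well (adjusted p 0.0470).

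**Figure D3:**
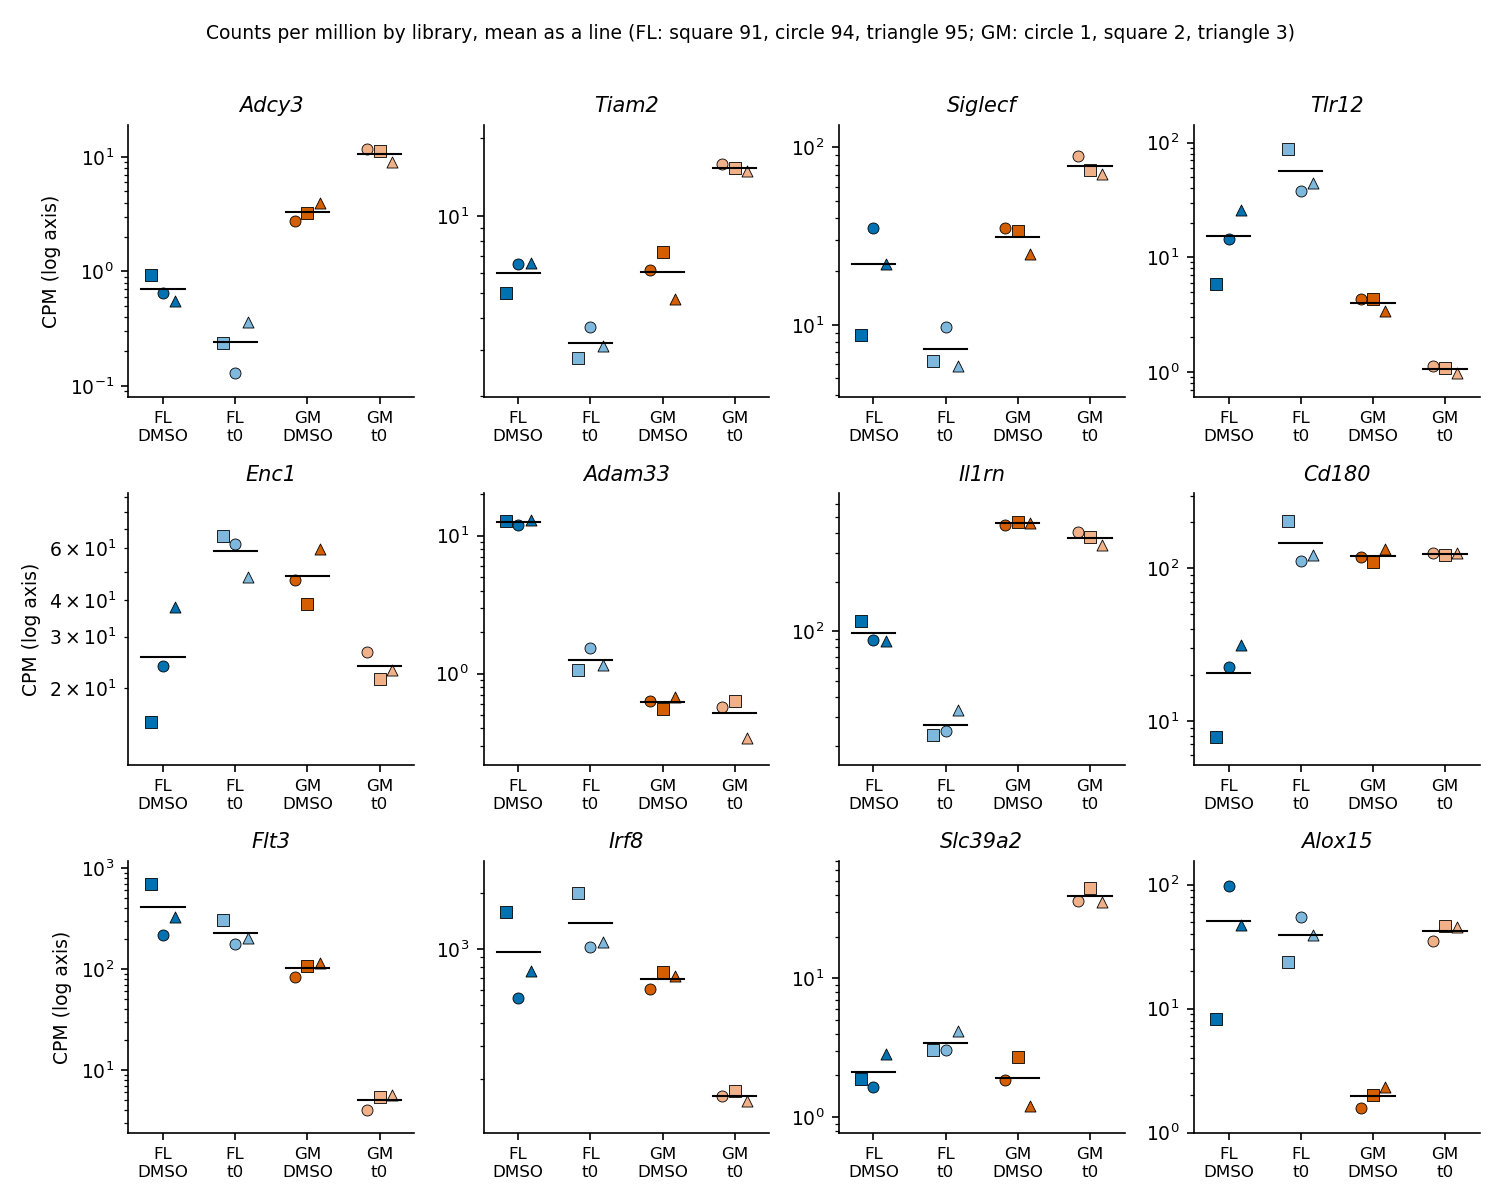
Each panel gives the CPM of 1 gene (log axis) in every library, with the groups FL DMSO, FL t0, GM DMSO and GM t0 from left to right, symbols for the culture or replicate number and a line at the group mean. Adcy3, Tiam2 and Siglecf were higher in FL DMSO than in FL t0 by mean and lower in GM DMSO than in GM t0, Tlr12 and Enc1 the reverse, Adam33, Il1rn and Cd180 moved mainly in FL, and Flt3, Irf8, Slc39a2 and Alox15 mainly in GM.

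The 94 genes called in GM with no call in FL comprised 45 that rose and 49 that fell. For 48 of the 94 the 95% interval of the FL change lay within 1 log2 unit of 0. Flt3, the receptor of the cytokine FLT3L, had 697, 217 and 325 CPM in FL DMSO cultures 91, 94 and 95 and 307, 175 and 202 CPM in FL t0. Flt3 in GM stood at 82.8, 107 and 115 CPM in DMSO and 4.03, 5.38 and 5.61 CPM at t0. The GM groups were separated by more than an order of magnitude, whereas the FL groups overlapped across cultures, with each FL culture higher in DMSO than at t0. Its change was 0.86 ± 0.36 in FL and 4.34 ± 0.37 in GM, a difference of -3.48 ± 0.52 (adjusted p 0.0147, called in 11 of 12, adjusted p 0.00737 with the replicate block). Irf8, the transcription factor that cDC1 depend on, had 1583, 545 and 764 CPM in FL DMSO and 2010, 1018 and 1086 CPM in FL t0, against 606, 748 and 716 CPM in GM DMSO and 162, 172 and 151 CPM in GM t0. It was lower after 24 h in each FL culture and higher in each GM replicate. Its difference was -2.60 ± 0.50 (adjusted p 0.0300, called in 3 of 12, adjusted p 0.00815 with the replicate block).

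Lad1, the filament-associated protein ladinin, had 271, 101 and 148 CPM in FL DMSO and 75.4, 108 and 122 CPM in FL t0. In GM, Lad1 was at 98.6, 134 and 121 CPM in DMSO and 5.87, 7.25 and 7.04 CPM at t0. The change in FL differed between cultures, at 1.83 in culture 91, -0.10 in 94 and 0.28 in 95 on the log2(CPM + 1) scale. The difference between the culture types was -3.36 ± 0.43 (adjusted p 0.00660, called in 12 of 12). Gcsam, a signalling adaptor named for germinal centre B cells, had 22.0, 4.14 and 13.02 CPM in FL DMSO and 13.5, 4.17 and 9.64 CPM in FL t0, against 4.51, 6.53 and 6.63 CPM in GM DMSO and 0.230, 0.0902 and 0.143 CPM in GM t0. Its GM groups were far apart, and the difference was -4.70 ± 0.87 (adjusted p 0.0249, called in 4 of 12). H2-Eb2, an MHC class II beta chain, differed by -3.03 ± 0.59 (adjusted p 0.0315, called in 3 of 12, adjusted p 0.0600 with the replicate block), and Tmem246, a transmembrane glycosyltransferase, by -2.82 ± 0.52 (adjusted p 0.0249, called in 6 of 12).

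In the falling direction, Slc39a2, a zinc importer, had 1.89, 1.64 and 2.85 CPM in FL DMSO and 3.03, 3.07 and 4.17 CPM in FL t0. GM levels of Slc39a2 were 1.84, 2.73 and 1.21 CPM in DMSO and 36.1, 45.0 and 35.7 CPM at t0. The GM values overlapped the FL values after 24 h and lay far above them at t0. The FL groups did not overlap either, each culture being lower in DMSO, but the FL change of -0.68 ± 0.29 was not called. The difference was 3.65 ± 0.41 (adjusted p 0.00299, called in 12 of 12). Alox15, a lipoxygenase that oxidises arachidonic acid, had 8.20, 97.2 and 47.4 CPM in FL DMSO and 23.8, 54.6 and 39.02 CPM in FL t0, against 1.59, 2.00 and 2.31 CPM in GM DMSO and 35.3, 46.5 and 45.3 CPM in GM t0. FL and GM overlapped at t0 and did not overlap after 24 h. Its difference was 4.81 ± 0.86 (adjusted p 0.0264, called in 4 of 12).

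Car4, a carbonic anhydrase of the cell surface, had 0, 1.16 and 1.48 CPM in FL DMSO and 0.942, 1.11 and 2.64 CPM in FL t0. Car4 in GM stood at 2.48, 4.84 and 1.71 CPM in DMSO and 209, 179 and 165 CPM at t0. Its level in FL was low at both times, and the difference was 5.15 ± 0.94 (adjusted p 0.0270, called in 2 of 12). Klrb1f, a lectin receptor of the NKR-P1 family, differed by 5.22 ± 1.01 (adjusted p 0.0315, called in 2 of 12), and Wfdc21, a secreted protein with a WAP domain, by 4.03 ± 0.81 (adjusted p 0.0394, called in 2 of 12). All 5 falling genes were called with the replicate block, at adjusted p of 0.00746 to 0.0474. The neutrophil marker sum was higher in FL DMSO than in FL t0 in each FL culture, as given above, and its part in the FL values of these genes was not tested.

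Genes that mark cDC1 mostly fell in FL cultures and moved both ways in GM. Of 24 markers tested, 2 rose and 15 fell in FL (16.2% and 12.3% of all genes), and 8 rose and 3 fell in GM (14.4% and 12.1%), with a median log2 change of -1.24 in FL and -0.07 in GM, beside 0.10 and 0.03 over all genes. The difference was called lower for 5 of 24 (Gcsam, Snx22, Ifi205, Flt3 and Irf8) and higher for 0 of 24, beside 1.01% and 0.575% of all genes. For 17 of the 24 the 3 FL changes all lay below the 3 GM changes, against 12.2% of all genes. Without culture 91 the difference was called lower for 14 and higher for 3, beside 10.9% and 6.63% of all genes. The summed level of the 24 markers was 3829 to 5586 CPM in FL DMSO and 6669 to 12810 CPM in FL t0, against 2964 to 3153 CPM in GM DMSO and 3645 to 3763 CPM in GM t0.

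The receptors at the centre of cDC1 function did not pass the test of the difference. Xcr1 fell in FL by 3.58 on the log2 scale, but in GM DMSO the 3 libraries together held 2 counts, so no fold can be given there. Clec9a, a receptor for dead cells, had 38.04, 51.6 and 82.5 CPM in FL DMSO and 161, 86.5 and 106 CPM in FL t0, against at most 1.02 CPM in any GM library, with a difference of -0.21 ± 0.53 (adjusted p 0.905). Batf3 rose in both types, by 1.18 in FL and 1.81 in GM (difference adjusted p 0.129, and 0.00337 without culture 91). The integrin Itgae had 17.6, 95.6 and 164 CPM in FL DMSO and 932, 301 and 347 CPM in FL t0, against 1.24, 1.55 and 0.338 CPM in GM DMSO and 29.5, 52.2 and 44.1 CPM in GM t0. It fell in both types, by 2.51 in FL and 5.28 in GM, and its difference of 2.76 ± 1.00 was not called (adjusted p 0.195) but was called without culture 91 (3.80, adjusted p 0.00154).

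Most type I interferon response genes fell in FL cultures. Of 36 listed genes 35 were tested, and 0 rose and 22 fell in FL (16.2% and 12.3% of all genes), whereas 6 rose and 3 fell in GM (14.4% and 12.1%). Their median log2 change was -0.96 in FL and 0.16 in GM, beside 0.10 and 0.03 over all genes. The difference was called lower for 5 of 35 (Mx2, Slfn5, Ifit2, Mx1 and Stat2) and higher for 0 (1.01% and 0.575% of all genes), and for 29 of 35 the FL changes all lay below the GM changes, against 12.2% of all genes. The median same-numbered change was -1.12, -1.0 and -0.76 in FL cultures 91, 94 and 95 and 0.09, 0.03 and 0.27 in GM replicates 1, 2 and 3. Without culture 91 the difference was called lower for 28 of 35 and higher for 0, where 10.9% and 6.63% of all genes were.

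Mx1, an interferon-induced gene of the GTPase family, had 146, 92.6 and 124 CPM in FL DMSO cultures 91, 94 and 95 and 217, 149 and 153 CPM in FL t0. In GM, Mx1 was at 147, 153 and 137 CPM in DMSO and 71.7, 58.6 and 68.2 CPM at t0. FL libraries were above GM libraries at t0, and the 2 types overlapped after 24 h. It rose in GM by 1.14 ± 0.19, had a change of -0.52 ± 0.19 in FL (adjusted p 0.0573), and differed by -1.66 ± 0.26 (adjusted p 0.0155, called in 10 of 12, adjusted p 0.0208 with the replicate block). Its relative Mx2 had 2.60, 2.74 and 4.82 CPM in FL DMSO and 16.4, 12.2 and 9.14 CPM in FL t0, against 7.47, 8.52 and 6.00 CPM in GM DMSO and 4.49, 5.07 and 4.30 CPM in GM t0. The FL groups did not overlap, and the difference was -2.55 ± 0.39 (adjusted p 0.0151, called in 10 of 12, adjusted p 0.0506 with the replicate block).

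Slfn5, a nuclear protein of the Schlafen family, had 34.3, 39.6 and 66.7 CPM in FL DMSO and 234, 124 and 122 CPM in FL t0. GM levels of Slfn5 were 161, 200 and 181 CPM in DMSO and 135, 162 and 129 CPM at t0. It fell in FL and its GM groups overlapped, with a difference of -2.12 ± 0.40 (adjusted p 0.0277, called in 5 of 12, adjusted p 0.0743 with the replicate block). Stat2, the factor that carries the interferon signal to the nucleus, had 153, 144 and 178 CPM in FL DMSO and 296, 235 and 239 CPM in FL t0, against 87.8, 95.1 and 80.6 CPM in GM DMSO and 72.3, 70.4 and 74.9 CPM in GM t0, a difference of -0.97 ± 0.19 (adjusted p 0.0277, called in 5 of 12, adjusted p 0.0710 with the replicate block). Ifit2, which binds viral RNA, differed by -2.03 ± 0.42 (adjusted p 0.0383, called in 3 of 12, adjusted p 0.0412 with the replicate block). Irf7, the factor that amplifies interferon production, fell in FL by 2.14 but its difference of -2.25 ± 0.53 was not called (adjusted p 0.0600). Isg15, a ubiquitin-like protein, moved differently between cultures: it had 84.0 CPM in FL DMSO culture 91 against 33.96 CPM in FL t0 of that culture, while cultures 94 and 95 had 21.2 and 31.6 CPM in DMSO against 37.3 and 44.1 CPM at t0.

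**Figure D4:**
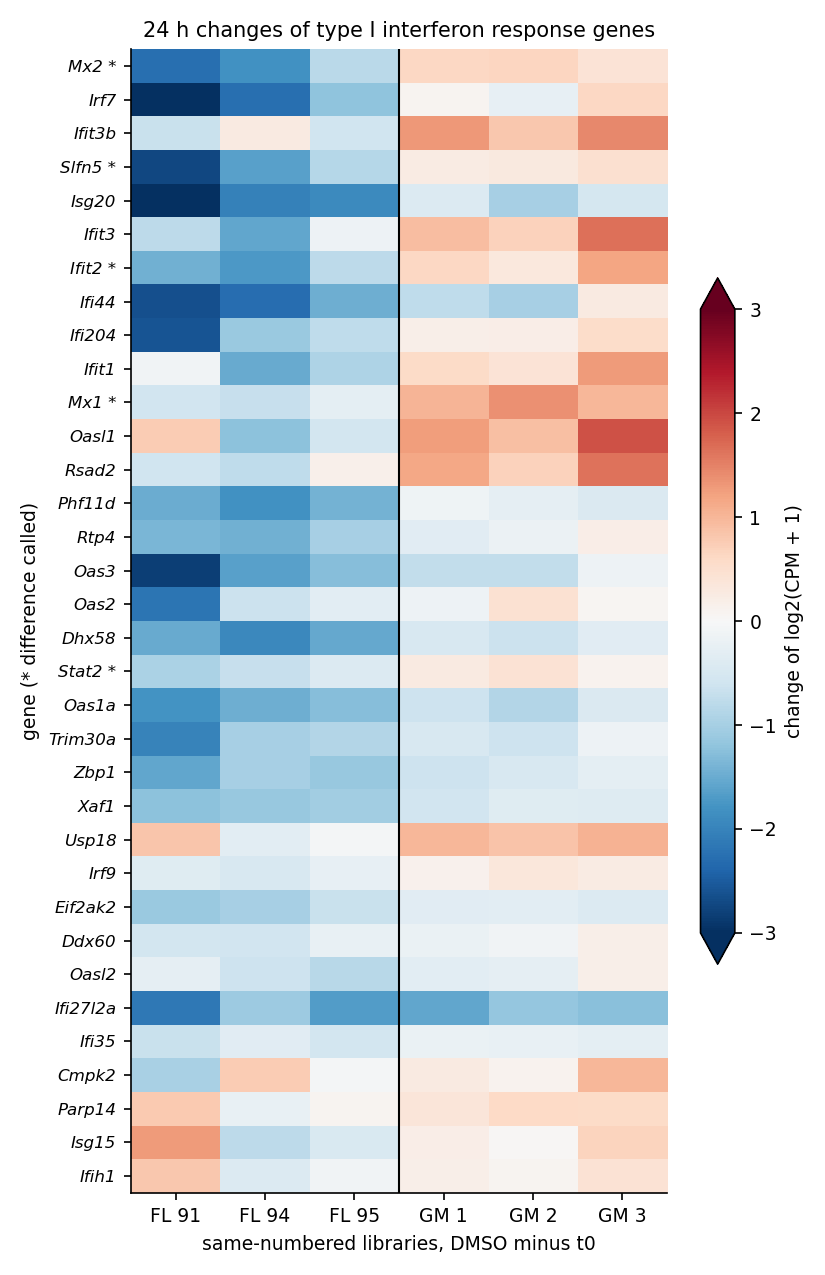
Rows are 34 of the 35 type I interferon response genes tested, ordered by the fitted difference, and columns are the same-numbered changes of log2(CPM + 1) from t0 to DMSO, with FL cultures on the left and GM replicates on the right (blue lower after 24 h, red higher). Over all 35 genes, 30, 33 and 33 were below 0 in FL cultures 91, 94 and 95, against 17, 17 and 11 in GM replicates 1, 2 and 3.

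Promoters of 3 of these genes are shown because many of the list's windows hold the letters of the ISRE core. Mx, Ifit, Oas and Schlafen genes have close relatives, as do the H2 genes and Ifi205, and their counts may be shared between copies. The motif searched was GAAA, 2 bases of any kind and GAAA, on both strands (TTTC on either side of the 2 bases on the reverse), counting overlapping matches, in the 300 bases from 250 before to 50 after the gene start of RefSeq (GRCm38.p6). Of the 24 tested list members with such a sequence, 13 held it (54.2%), against 440 of 11257 genes tested (3.91%). Among these 13 only Slfn5 and Stat2 had a called difference, and the called genes Mx1, Mx2 and Ifit2 were not among them. Whether the motif goes with the difference was not tested. A match is a description of letters and not of binding. The windows of Slfn5 (chr11:82951852-82952151, + strand) and Stat2 (chr10:128270248-128270547, + strand), both with a called difference, and of Isg15 (chr4:156200769-156201068, - strand), with 3 matches and no called difference, read as follows, with the matches in capitals.
Slfn5: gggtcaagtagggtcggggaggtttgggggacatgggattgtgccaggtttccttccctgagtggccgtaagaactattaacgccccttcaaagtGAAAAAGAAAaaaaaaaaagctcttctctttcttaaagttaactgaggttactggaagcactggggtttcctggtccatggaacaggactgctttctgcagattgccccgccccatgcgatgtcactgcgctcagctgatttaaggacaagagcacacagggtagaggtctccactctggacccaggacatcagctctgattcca
Stat2: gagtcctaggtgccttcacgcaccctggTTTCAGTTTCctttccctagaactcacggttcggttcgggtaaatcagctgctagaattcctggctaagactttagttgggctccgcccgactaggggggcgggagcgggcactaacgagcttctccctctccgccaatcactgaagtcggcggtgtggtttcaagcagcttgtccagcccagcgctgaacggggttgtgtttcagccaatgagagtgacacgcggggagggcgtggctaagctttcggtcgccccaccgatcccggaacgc
Isg15: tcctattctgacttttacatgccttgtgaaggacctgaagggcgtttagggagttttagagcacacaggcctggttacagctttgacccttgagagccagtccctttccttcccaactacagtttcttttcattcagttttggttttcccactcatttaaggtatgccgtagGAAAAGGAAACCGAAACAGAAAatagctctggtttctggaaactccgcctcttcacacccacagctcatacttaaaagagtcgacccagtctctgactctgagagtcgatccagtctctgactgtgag
The same windows held the kappaB letters GGGA, 2 bases of any kind and TTCC, on both strands, in 0 of 25 dendritic cell maturation genes and 3 of 22 NF-kB pathway genes (13.6%), against 1.80% of the genes tested.

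Maturation genes rose in both culture types. Of 38 tested, 35 rose and 0 fell in FL (16.2% and 12.3% of all genes), and 32 rose and 0 fell in GM (14.4% and 12.1%), with a median log2 change of 1.46 in FL and 2.51 in GM. The difference was called lower for 5 of 38 (Serpinb6b, Tnfrsf4, Eno2, Fscn1 and Gadd45b) and higher for 0 with all libraries, beside 1.01% and 0.575% of all genes. It was called lower for 29 and higher for 1 (Cd80) without culture 91, beside 10.9% and 6.63%. The median same-numbered change was 2.35, 0.76 and 0.91 in FL cultures 91, 94 and 95, and 2.16, 2.28 and 2.51 in GM replicates 1, 2 and 3. Culture 91 thus changed by an amount like the GM replicates, and cultures 94 and 95 by less.

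Fscn1 had 7696, 3061 and 3813 CPM in FL DMSO and 1236, 1544 and 1803 CPM in FL t0, against 2422, 3210 and 3154 CPM in GM DMSO and 182, 209 and 186 CPM in GM t0. The groups did not overlap within either type, and the FL t0 level was already several times that of GM t0. It rose by 1.67 ± 0.29 in FL and 3.93 ± 0.29 in GM, a difference of -2.26 ± 0.42 (adjusted p 0.0264, called in 4 of 12, adjusted p 0.0577 with the replicate block). Tnfrsf4, the receptor OX40, had 89.3, 54.7 and 69.9 CPM in FL DMSO and 33.05, 38.7 and 56.6 CPM in FL t0, against 37.6, 56.1 and 43.2 CPM in GM DMSO and 5.28, 4.67 and 5.22 CPM in GM t0, and was called in 12 of 12 fits (difference -2.44 ± 0.33, adjusted p 0.00755). Gadd45b, a stress-induced signalling protein, differed by -2.06 ± 0.37 (adjusted p 0.0246, called in 6 of 12, adjusted p 0.0614 with the replicate block). The neuronal enolase Eno2 differed by -2.34 ± 0.39 (adjusted p 0.0194, called in 7 of 12, adjusted p 0.0531 with the replicate block).

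Ccr7 itself had 7700, 1606 and 2267 CPM in FL DMSO and 1115, 1142 and 1160 CPM in FL t0. Ccr7 in GM stood at 1569, 1867 and 1997 CPM in DMSO and 240, 298 and 226 CPM at t0. Its FL and GM levels after 24 h overlapped apart from culture 91, which was several times higher than any other library. The difference was -1.07 ± 0.62 (adjusted p 0.443) with all libraries and -2.17 without culture 91 (adjusted p 3.33e-05). The costimulatory receptor Cd40 had a difference of -1.30 ± 0.50 (adjusted p 0.218) that became -2.14 without culture 91 (adjusted p 6.04e-05), while for the costimulatory ligand Cd86 no change was called in either type. Il12b, a subunit of interleukin-12, had 1966, 112 and 225 CPM in FL DMSO and 161, 93.2 and 75.7 CPM in FL t0, against 138, 197 and 256 CPM in GM DMSO and 2.40, 4.28 and 2.69 CPM in GM t0. Its difference was -3.17 ± 1.13 (adjusted p 0.196) with all libraries and -5.08 without culture 91 (adjusted p 0.000188).

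Apol7c, an apolipoprotein L of dendritic cells with near-identical family members, had 9622, 1500 and 2074 CPM in FL DMSO and 151, 211 and 204 CPM in FL t0. In GM, Apol7c was at 1942, 2865 and 2664 CPM in DMSO and 11.8, 14.5 and 9.95 CPM at t0. The difference of -3.15 ± 0.76 was not called (adjusted p 0.0696), and was called without culture 91 (-4.68, adjusted p 9.92e-07). Id3, an inhibitor of basic helix-loop-helix factors, had 36.6, 40.2 and 63.3 CPM in FL DMSO and 1.22, 7.5 and 4.33 CPM in FL t0, against 23.5, 18.2 and 25.9 CPM in GM DMSO and 0.214, 0.198 and 0.269 CPM in GM t0. It rose in both types, and its difference of -3.19 ± 0.75 missed the threshold (adjusted p 0.0552). Il6, an inflammatory cytokine, rose in GM by 2.48 with no call in FL, and the difference of -2.08 ± 0.57 was not called (adjusted p 0.0965).

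Genes of the NF-kB pathway rose in both types, with 19 of 26 called up and 0 called down in each, where 16.2% of all genes rose in FL and 14.4% in GM. The difference was called lower for 2 (Bcl3 and Nfkbid), beside 1.01% of all genes, and, without culture 91, for 15, beside 10.9%. Bcl3, an atypical inhibitor of NF-kB, had 60.4, 40.4 and 53.4 CPM in FL DMSO and 23.2, 30.1 and 30.6 CPM in FL t0, against 76.4, 79.0 and 55.2 CPM in GM DMSO and 16.3, 16.5 and 15.9 CPM in GM t0, a difference of -1.23 ± 0.25 (adjusted p 0.0376, called in 3 of 12, adjusted p 0.0850 with the replicate block). Nfkbid, another member of that family, had a change of 0.00 ± 0.19 in FL and rose by 1.21 ± 0.19 in GM (difference adjusted p 0.0485, called in 1 of 12, adjusted p 0.0967 with the replicate block). For the subunits Relb and Nfkb2 of the noncanonical pathway the differences of -1.41 ± 0.51 and -0.96 ± 0.52 were not called (adjusted p 0.192 and 0.405) but were called without culture 91, at -2.31 and -1.83 (adjusted p 1.22e-05 and 6.51e-05). Birc2 and Birc3, the cellular IAP proteins, rose in both types, with differences of -0.62 ± 0.38 and -0.75 ± 0.35 that were not called (adjusted p 0.464 and 0.329), and called without culture 91 at -1.29 and -1.30 (adjusted p 0.000190 and 2.76e-05). Dll4, a Notch ligand, was at most 1.29 CPM in any library, and its difference was not called (adjusted p 0.908).

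Cell cycle genes fell in both types. Of 39 tested, 0 rose and 26 fell in FL, and 0 rose and 38 fell in GM, where 12.3% and 12.1% of all genes fell, with a median log2 change of -1.29 in FL and -2.68 in GM. No difference was called by edgeR with all libraries, although 22 of the 39 genes had an unadjusted p under 0.05, and DESeq2 called 4 and group-weighted voom 0. Over all genes these shares were 16.1%, 7.22% and 1.65%. Without culture 91 the difference was called higher in FL for 36 of 39, beside 6.63% of all genes. Mki67, a marker of cycling cells, had 41.8, 250 and 166 CPM in FL DMSO cultures 91, 94 and 95 and 289, 273 and 266 CPM in FL t0. GM levels of Mki67 were 62.1, 77.6 and 46.8 CPM in DMSO and 317, 273 and 420 CPM at t0. Culture 91 was at the level of the GM replicates after 24 h and the other FL cultures well above it. The difference was 1.58 ± 0.65 (adjusted p 0.249) with all libraries and 1.98 without culture 91 (adjusted p 0.00287). Top2a, the topoisomerase of dividing cells, differed by 1.78 ± 0.61 (adjusted p 0.174), and by 2.20 without culture 91 (adjusted p 0.00121).

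**Figure D5:**
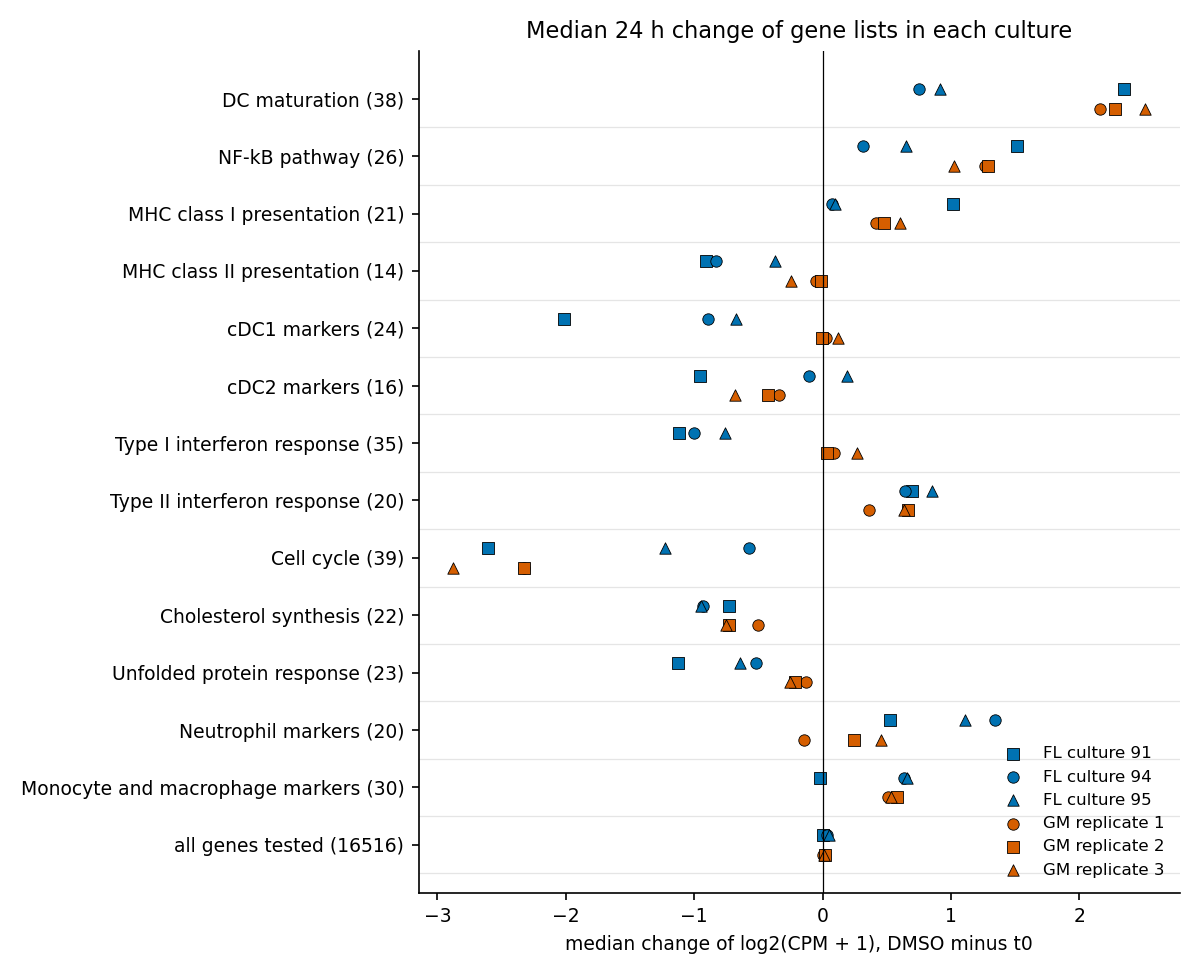
The horizontal axis gives, for each gene list on the vertical axis (members tested in parentheses), the median change of log2(CPM + 1) from t0 to DMSO in each of 3 FL cultures (blue, upper row) and 3 GM replicates (orange, lower row). For type I interferon genes the FL medians (-1.12 to -0.76) lie below the GM medians (0.03 to 0.27), while for maturation genes culture 91 (2.35) lies among the GM replicates (2.16 to 2.51).

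MHC class II presentation genes, a list that does not hold the called gene H2-Eb2, rose in FL for 4 of 14 tested and fell for 9 (16.2% and 12.3% of all genes), and in GM 2 rose and 2 fell (14.4% and 12.1%). No difference within the list was called by edgeR with all libraries. Of the 14, 7 had an unadjusted p under 0.05 (50%), DESeq2 called 5 (35.7%) and group-weighted voom 2 (14.3%). Over all genes these shares were 16.1%, 7.22% and 1.65%. Without culture 91 edgeR called 4 lower (10.9% of all genes). Ciita, the master activator of these genes, had 69.2, 106 and 170 CPM in FL DMSO and 664, 321 and 367 CPM in FL t0, against 193, 248 and 135 CPM in GM DMSO and 212, 280 and 285 CPM in GM t0. It fell in FL by 1.97, but the difference of -1.54 ± 0.50 was not called (adjusted p 0.153). H2-Eb1, a class II beta chain, changed in opposite directions, by -0.53 in FL and 0.50 in GM, with a difference just outside the threshold (-1.03, adjusted p 0.0521). MHC class I presentation genes rose for 9 and fell for 3 of 21 in FL (16.2% and 12.3% of all genes), and rose for 10 and fell for 0 in GM (14.4% and 12.1%), with 0 differences called by edgeR and 13 called lower without culture 91 (10.9% of all genes). Of those 21, 4 had an unadjusted p under 0.05, a share of 19% beside 16.1% of all genes. DESeq2 called 2 (9.52%) and group-weighted voom 0, beside 7.22% and 1.65% of all genes.

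A few members of other lists differed. The difference was called lower for 1 of 30 monocyte and macrophage markers (Apoe) and for 2 of 32 lysosome genes. It was called higher for 0 of either list, where 1.01% of all genes were called lower and 0.575% higher. Apoe, a lipid carrier of macrophages, had 8.27, 7.46 and 6.47 CPM in FL DMSO and 5.20, 3.14 and 3.24 CPM in FL t0. Apoe in GM stood at 1000, 646 and 846 CPM in DMSO and 130, 79.9 and 81.3 CPM at t0. It rose in both types, and the difference was -2.16 ± 0.36 (adjusted p 0.0174, called in 10 of 12). The macrophage receptor Csf1r, in contrast, was not called (-0.80 ± 0.49, adjusted p 0.470). Lipa, the acid lipase of lysosomes, had 93.4, 65.9 and 109 CPM in FL DMSO and 147, 104 and 125 CPM in FL t0, against 1139, 873 and 1152 CPM in GM DMSO and 496, 560 and 512 CPM in GM t0, a difference of -1.50 ± 0.28 (adjusted p 0.0264, called in 5 of 12).

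Insig1, which restrains cholesterol synthesis and is itself induced by its activator, fell by 1.69 in FL and by 0.62 in GM, a difference of -1.06 ± 0.20 (adjusted p 0.0264, called in 4 of 12). Cholesterol synthesis genes fell for 13 of 22 in FL and 14 of 22 in GM (12.3% and 12.1% of all genes), with 0 and 2 rising (16.2% and 14.4%). With all libraries the difference was called lower for 1 of these 22 and higher for 0, beside 1.01% and 0.575% of all genes. Without culture 91 it was called lower for 10 of the 22 and higher for 0, beside 10.9% and 6.63% of all genes. Among lectin receptors Clec4d, which binds mycobacterial glycolipid, had 11.9, 15.4 and 17.0 CPM in FL DMSO and 9.37, 10.7 and 15.2 CPM in FL t0, against 252, 194 and 276 CPM in GM DMSO and 58.7, 59.0 and 60.5 CPM in GM t0. It rose in GM and the FL groups overlapped, with a difference of -1.69 ± 0.28 (adjusted p 0.0171, called in 10 of 12). Of 29 Toll-like and lectin receptors tested the difference was called lower for 2 and higher for 0, beside 1.01% and 0.575% of all genes.

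Among chemokines, Ccl7, a monocyte attractant, had 0.856, 2.88 and 1.54 CPM in FL DMSO and 1.33, 1.72 and 1.61 CPM in FL t0, against 6.31, 7.01 and 4.92 CPM in GM DMSO and 35.7, 50.7 and 50.8 CPM in GM t0, a difference of 3.08 ± 0.46 (adjusted p 0.0151, called in 10 of 12). Cxcl14, another chemokine, rose in GM to 18.7, 17.1 and 19.5 CPM in DMSO, against 1.41, 1.77 and 1.18 CPM at t0, and stayed at most 0.651 CPM in FL, a difference of -2.65 ± 0.55 (adjusted p 0.0406, called in 3 of 12, adjusted p 0.119 with the replicate block). For Ccl22 and Ccl17, attractants of T cells, the differences of -0.83 ± 0.33 and 2.02 ± 0.74 were not called (adjusted p 0.229 and 0.198), although Ccl22 rose in both types and Ccl17 fell in GM. Of the 22 chemokines tested the difference was called higher for 1 and lower for 1, beside 0.575% and 1.01% of all genes.

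The cDC2 markers Epcam and Esam moved apart: Epcam, an adhesion molecule of Langerhans-type cells, fell by 1.24 in FL and 2.80 in GM (difference 1.56 ± 0.26, adjusted p 0.0171, called in 7 of 12). Esam, an adhesion molecule of splenic cDC2, rose by 1.70 in FL and 4.13 in GM (difference -2.42 ± 0.44, adjusted p 0.0249, called in 5 of 12, adjusted p 0.0812 with the replicate block). Esam was at only 0.180 to 0.444 CPM in GM t0, and its same-numbered changes overlapped between the types. Of the 16 cDC2 markers tested, 2 rose and 4 fell in FL (16.2% and 12.3% of all genes). In GM 3 rose and 4 fell (14.4% and 12.1%). The difference was called higher for 1 and lower for 1, beside 0.575% and 1.01%. Spib, a transcription factor of plasmacytoid dendritic cells, rose in both types and more in GM (difference -2.11 ± 0.40, adjusted p 0.0292, called in 4 of 12, adjusted p 0.0708 with the replicate block). It was the single called member of the 12 plasmacytoid markers tested, where 1.01% of all genes were called lower. In FL 3 of the 12 rose and 1 fell (16.2% and 12.3% of all genes), and in GM 3 rose and 2 fell (14.4% and 12.1%). The Notch ligand Dll1 rose in GM by 1.98 with no call in FL (difference -2.23 ± 0.40, adjusted p 0.0246, called in 7 of 12, adjusted p 0.0506 with the replicate block), and Irgm1, a GTPase induced by interferon-gamma, fell in FL by 1.39 with no call in GM (difference -1.20 ± 0.26, adjusted p 0.0482, called in 2 of 12, adjusted p 0.0772 with the replicate block). Dll1 and Irgm1 were the single called members of 17 Notch pathway and 20 type II interferon response genes tested. Over all genes 1.01% were called lower. No difference was called among the tested members of the BCL2 family (16), IAP and TNF receptor complex (26), glycolysis and hypoxia (26), respiratory chain (27), immediate early (25), NRF2 target (21) and integrin (20) lists, nor among markers of neutrophils (20), mast cells and basophils (13) or lymphocytes (11). Of these 205 memberships 40 had an unadjusted p under 0.05 by edgeR, DESeq2 called 15 and group-weighted voom 4. Pooled over the lists, these shares of 19.5%, 7.32% and 1.95% lay near the 16.1%, 7.22% and 1.65% of all genes. By list the first share ranged from 4.76% (NRF2 targets) to 37.5% (BCL2 family), with 32% for immediate early genes. Without culture 91 each of these lists had at least 1 call. In the IAP and TNF receptor complex list 3 of 26 were then called higher and 8 lower, and among integrins 4 of 20 higher and 6 lower. In the respiratory chain list 1 of 27 was called higher and 0 lower. Over all genes these shares were 6.63% and 10.9%.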

How the data were processed

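Gene counts per library were deposited as raw, whole-number counts, with 55414 gene lines each. Per the submitters' processing notes, STAR 2.7.3a, HTSeq 0.12.4, DESeq2 1.30.1 and the build GRCm39 were used. Neither the annotation release nor the strand setting of the counting is stated by the labels or files, so reads of overlapping and antisense genes cannot be assigned with certainty. Lines that name no gene (10.98% to 15.77% of all counts) were left out. Symbols came from GENCODE M21 (GRCm38), which named 52133 identifiers, and no coordinates of it were used for counts.

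The 12 FL and GM libraries at t0 and after DMSO were fitted together with edgeR 4.0.16 in R 4.3.3 (TMM scaling, filterByExpr over the 4 groups, robust quasi-likelihood test, Benjamini-Hochberg adjustment over all genes, calls at an adjusted p under 0.05). CPM used TMM-scaled library sizes. Same-numbered changes are differences of log2(CPM + 1). Alternatives were DESeq2 1.42.0, limma 3.58.1 with group-weighted voom, median-of-ratios scaling, no low-count filter, all 24 libraries in the fit, a replicate block, each library left out, and culture 91 left out.

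The genes named were the 5 with the greatest difference in each of 6 classes (opposite, FL only and GM only, each in 2 directions), among called protein-coding genes with at least 10 CPM in a group and non-overlapping same-numbered changes. To these came up to 3 called members of each gene list, up to 1 called the other way, and a panel of 24 genes. Further list members, Cxcr3 among them by its list, are named with their values; Irf7, Isg15, Ifit2, Stat2, Serpinb6b, Cd80, Top2a, Ciita and H2-Eb1 were chosen after their values were seen. Items that these rules also chose but that are withheld are not reported here. The members and lists were chosen with earlier results of these data known.

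Deviations of same-numbered DMSO and t0 libraries from their group means correlated at 0.26, 0.37 and 0.12 in FL cultures 91, 94 and 95 and at 0.10, 0.09 and 0.06 in GM replicates 1, 2 and 3. Libraries with different numbers correlated at -0.36 to 0.10 in FL and at -0.081 to -0.0009 in GM. In both types the same-numbered values were thus the higher ones, though all were low in GM. The value of FL culture 95 lay close to the highest differently numbered value of FL. No libraries of a group agreed within sampling noise, with a chi-square of 23.9 to 448 per degree of freedom.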

Additional observations from a re-analysis of the deposited data

Results flagged for a closer look

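A difference of the 24 h changes between FL and GM cultures was found by the test of the difference itself for 261 genes. Among the named genes with called changes in opposite directions, the difference on the log2 scale was positive for Adcy3 (3.24), Siglecf (2.92), Slc6a4 (2.48), Tiam2 (2.25) and Plekha6 (2.18), which rose in FL and fell in GM. It was negative for Enc1 (-2.22), Ly9 (-2.30), Tlr12 (-3.80), Snx22 (-4.12) and Cxcr3 (-7.65), which fell in FL and rose in GM. For Cxcr3 the FL DMSO libraries held 4 counts in all, so the size of that value is not firm. Adcy3 was under 1 CPM in every FL library, so the size of its FL change is limited by depth.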

How the results depend on the processing

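Counts in this paragraph are given in the order higher in FL, lower in FL, changed in FL, changed in GM, opposite with FL up, opposite with FL down, FL only, GM only and same direction. With all 12 libraries they were 95, 166, 4696, 4378, 14, 17, 60, 94 and 76. DESeq2 gave 546, 646, 5888, 5515, 40, 37, 391, 423 and 280. The fit to all 24 libraries gave 152, 683, 5307, 5146, 13, 42, 302, 244 and 230. Group-weighted voom gave 79, 193, 2376, 8447, 10, 12, 35, 115 and 100. Without a low-count filter they were 81, 205, 3651, 3660, 10, 11, 74, 107 and 84. The replicate block gave 82, 98, 4197, 4210, 20, 13, 36, 75 and 36. Without culture 91 they were 1125, 1853, 4642, 7627, 70, 80, 503, 1406 and 839. Median-of-ratios scaling moved none of these counts by over 1.5 times. With 1 library left out the ranges were 11 to 1153, 21 to 1986, 2647 to 5661, 2684 to 7052, 3 to 83, 0 to 82, 3 to 719, 14 to 1324 and 11 to 840, and in such a fit the 2 libraries left in a group were assumed to vary like the others. Of the 74 named genes, 23 lost the call under the replicate block, 14 under group-weighted voom and 9 without the filter, and 16 gained one without culture 91. The sign turned for genes with no called difference: for Xcr1 to 0.24 under DESeq2, 0.15 under the block and 0.96 without culture 91, for Cd86 to -0.11 with all 24 libraries, and for Clec9a to 0.25 without culture 91. With 1 library left out the difference ranged over -0.69 to 2.37 for Xcr1, -0.085 to 0.082 for Cd86, -0.64 to 0.076 for Clec9a and -2.50 to 0.036 for Dll4. The causes were not tested. Differences of genes under 1 CPM in a group, such as Xcr1, Cxcr3 and Adcy3, are limited by depth.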
